A study of Homo sapiens with 6 samples.

Results

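Metallothioneins are small proteins rich in cysteine, whose sulphur atoms bind zinc, copper and toxic metals such as cadmium. Cells use them to buffer zinc, to hold excess metal and to take up oxidants. Their genes are switched on by MTF1, a transcription factor that is activated by zinc and binds short metal response elements in their promoters, and several of them also respond to glucocorticoids. The liver is one of the tissues where they are best known.

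The metallothionein genes described here are the rows of the expression table named MT2A, MT1A, MT1E, MT1F, MT1G, MT1M or MT1X, 7 of the 4926 rows with a gene name and of 6357 rows in all. RNA was sequenced from HepG2 cells, a line from a human liver tumour, either wild type (WT) or with the FN3K gene knocked out by CRISPR (FN3K KO). Each group was 3 plates, grown in the same medium with fetal bovine serum, and the labels name no added metal or other agent. FN3K is the kinase that removes sugars from glycated lysines, and how many KO clones were grown is not given in the sources used here. The p-values below measure the spread between plates of a line.

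FN3K itself was at 27.7, 21.9 and 23.2 FPKM (fragments per kilobase of transcript, scaled to the mapped fragments of the library) in the WT plates, in the order of their replicate numbers, and at 0.782, 1.03 and 0.704 FPKM in KO. Of 10 hepatocyte lineage markers, 8 have a row, and their summed level was 7866 to 7985 FPKM in WT and 14510 to 15740 FPKM in KO. Most of that difference was AFP, at means of 1537 and 6206 FPKM, and APOA1, at 1516 and 3339 FPKM. By limma (adjusted p under 0.05), 5 of the 8 were called higher and 1 lower, against 21.2% and 36.5% of all loci. TTR had means of 55.1 FPKM in WT and 419 FPKM in KO, a log2 fold change of 2.90, within the range of the metallothioneins below. APOB and FGB were also called higher, at 0.66 and 0.52. HNF4A, a regulator of hepatocyte identity, was called lower, with a log2 fold change of -0.35, and TF and SERPINA1 did not pass the test. Of 14 markers of fibroblasts, endothelium and blood, CD14 alone has a row, at 0.446 to 2.62 FPKM in WT and 13.1 to 16.1 FPKM in KO. CD14 is also made by hepatocytes, and the part of any change in cell state in the results below was not tested. In bulk RNA, more cells that express a gene and more RNA per cell cannot be told apart. The depth of the libraries is unknown, and FPKM summed to between 289983 and 314164 per library.

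The members lie within 76.0 kb of chromosome 16 (GENCODE version 29, GRCh38). In order they are MT2A (56608199 to 56609497), MT1E (56625475 to 56627112), MT1M (56632233 to 56633986), MT1A (56638666 to 56640087), MT1F (56657694 to 56660698), MT1G (56666731 to 56668065) and MT1X (56682424 to 56684196). MT1G alone is on the minus strand, and the other 6 are on the plus strand. The annotation has 4 more protein-coding metallothionein genes in the same stretch or just before it (MT4, MT3, MT1B and MT1H) and 5 pseudogenes (MT1L, MT1JP, MT1DP, MT1CP and MT1IP), which were not analysed here.

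Each of the 7 transcripts named in the table has 3 exons and a coding sequence of 186 bases, stop codon included, in which 20 of 61 amino acid codons (32.8%) are TGC or TGT, the codons of cysteine. The coding sequences of 4 members are shown because they carry the extremes of the results below: MT2A the highest level, MT1G and MT1E the highest fold changes on the log2(FPKM + 1) scale, and MT1M the lowest level. Sequences are from the GENCODE transcripts, and capitals mark the cysteine codons.
MT2A: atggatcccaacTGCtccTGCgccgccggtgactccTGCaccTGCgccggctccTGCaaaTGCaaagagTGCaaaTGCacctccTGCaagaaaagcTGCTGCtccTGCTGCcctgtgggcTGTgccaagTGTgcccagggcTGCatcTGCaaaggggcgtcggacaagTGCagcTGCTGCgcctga
MT1G: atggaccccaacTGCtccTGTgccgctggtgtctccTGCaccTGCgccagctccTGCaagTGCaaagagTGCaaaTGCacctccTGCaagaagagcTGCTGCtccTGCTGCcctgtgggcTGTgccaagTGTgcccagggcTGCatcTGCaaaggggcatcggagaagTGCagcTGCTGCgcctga
MT1E: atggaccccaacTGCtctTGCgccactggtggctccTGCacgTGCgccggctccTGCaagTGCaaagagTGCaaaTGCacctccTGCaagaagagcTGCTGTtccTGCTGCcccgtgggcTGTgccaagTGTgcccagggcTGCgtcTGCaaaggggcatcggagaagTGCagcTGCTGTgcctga
MT1M: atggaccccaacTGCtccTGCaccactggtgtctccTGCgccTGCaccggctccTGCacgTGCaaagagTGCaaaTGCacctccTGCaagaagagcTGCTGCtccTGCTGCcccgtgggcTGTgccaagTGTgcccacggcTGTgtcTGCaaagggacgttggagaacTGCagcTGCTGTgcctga

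Over the 21 pairs of members, the coding sequences were identical at 88.7% to 95.2% of bases, with MT1G and MT2A the closest pair. Such similarity bears on how well reads can be given to 1 member. Of all stretches of 50 bases in a member's transcript, between 3.59% (MT1F) and 45.1% (MT1X) occur exactly in a transcript of another annotated gene. The matches of MT1X include AC026461.1, which is not a member, and the next highest share was 20.2% (MT1G). For stretches of 100 bases, no member shares any with another member. MT1X shares 19.1% of its 100-base stretches with AC026461.1, another annotated gene, with matches sought on both strands. The read length is not given in the sources used here, so values of single members are uncertain to the extent that reads were short. FPKM divide by transcript length, which ran from 396 bases (MT1A) to 829 bases (MT1M), so the family sum also moves with how reads were divided.

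The promoters of MT2A and MT1X are shown because they hold the sequence through which metals are known to act on these genes. These 2 were the only members with an entry in the promoter set used here. Each stretch is the 250 bases before the transcription start given by RefSeq (GRCh38.p14). By GENCODE version 29, whose genes start earlier, the MT2A stretch lies inside the annotated gene and that of MT1X runs into its first bases. The metal response core was searched as TGCACNC and TGCGCNC on both strands, and capitals mark each match.
MT2A, plus strand of chr16:56608334-56608583: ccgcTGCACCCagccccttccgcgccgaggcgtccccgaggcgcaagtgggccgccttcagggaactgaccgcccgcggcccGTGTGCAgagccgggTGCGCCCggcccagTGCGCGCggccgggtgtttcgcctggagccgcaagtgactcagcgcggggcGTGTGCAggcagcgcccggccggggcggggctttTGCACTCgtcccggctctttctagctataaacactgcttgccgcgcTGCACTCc
MT1X, plus strand of chr16:56682220-56682469: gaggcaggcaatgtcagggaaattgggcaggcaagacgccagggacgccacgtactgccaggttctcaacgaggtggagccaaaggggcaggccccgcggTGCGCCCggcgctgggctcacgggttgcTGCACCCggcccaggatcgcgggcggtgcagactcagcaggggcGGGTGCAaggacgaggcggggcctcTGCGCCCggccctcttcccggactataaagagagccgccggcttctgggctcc

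MT2A held 7 matches to the metal response core, none overlapping another, the nearest starting 8 bases before the start and the farthest 246 bases before it. MT1X held 4, starting between 53 and 150 bases before the start. Over 34943 promoters of the same length, 24.8% held at least 1 match, 1.58% at least 3 and 0.12% at least 5. Each of the 2 promoters also held 1 TATA motif (TATAAA), at 29 and 30 bases before the start, which 10.8% of promoters have, and 2 GC boxes (GGGCGG), which 42.5% have at least once. In MT1X the end of a GC box overlaps the start of a metal response core. The antioxidant response core, searched as TGACNNNGC and TGAGNNNGC, matched once in MT2A and at 2 places in MT1X, and 23.9% of promoters hold it. The full glucocorticoid response palindrome matched neither promoter, but only 0.00286% of promoters hold it, so a miss says little. Looser forms of this site and bases farther upstream were not searched. A match describes the letters in these windows and not the binding of a factor.

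The first comparison asked how each metallothionein gene differed between FN3K KO and WT cells. All 7 were higher in FN3K KO cells, by factors of means between 5.44 and 15.02 for the 6 members above 0 in every WT library. All 7 had a Benjamini-Hochberg adjusted p under 0.05 from limma on log2(FPKM + 1), fitted over all loci, where 21.2% of the 6357 loci were called higher in KO. The groups did not overlap for any of the 7, with KO on top, as in 23.6% of all loci, whereas in 39.8% KO lay wholly below WT. All 7 also had a log2 fold change over 1, which 4.25% of loci did with an adjusted p under 0.05, while 3.19% had one under -1. The median log2 fold change was 2.67 over the members and -0.14 over all loci. The members were chosen with results of these libraries known, so their shared direction is described and not tested as a list.

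**Figure D1:**
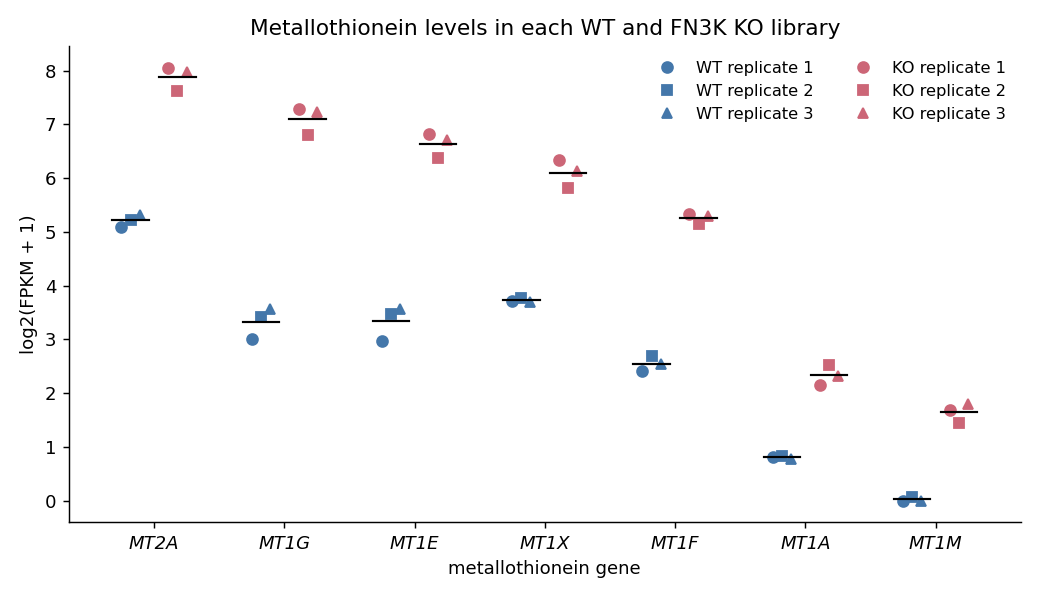
Level of each metallothionein gene as log2(FPKM + 1) on the vertical axis, by gene on the horizontal axis. Each point is 1 library, blue for WT and red for FN3K KO, with the replicate given by the shape, and lines mark the mean of 3 libraries. For each of the 7 genes every red point lies above every blue point, and MT1M is near 0 in WT.

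MT2A, the most abundant member and the form that most human tissues express, had 33.2, 36.5 and 38.9 FPKM in WT, with replicates always given in the order of their numbers. In FN3K KO it had 265, 195 and 249 FPKM. The groups stood well apart, the lowest KO library being 5.02 times the highest WT library. On the log2(FPKM + 1) scale its fold change was 2.67 ± 0.11 (SE, adjusted p = 3.6e-07 by limma). Its mean level lay above that of 81.0% of loci in WT and of 97.5% in KO.

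MT1G, a member of the MT1 group on the minus strand, had the highest log2 fold change of the members on the log2(FPKM + 1) scale. With 0.1 FPKM added MT1M was higher, at 4.27 against 3.90, and in FPKM the gain of MT2A, 200.3, exceeded the 128.6 of MT1G. It had 7.01, 9.66 and 10.9 FPKM in the WT libraries and 155, 109.8 and 149 FPKM in KO, so that WT replicate 1 and KO replicate 2 were the lowest of their groups. Its log2 fold change was 3.77 ± 0.16 (SE, adjusted p = 4.5e-07 by limma), and 0 of the 6357 loci had a higher one. Its fold of means was 15.02.

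MT1E, a member of the MT1 group, had 6.81, 10.1 and 10.8 FPKM in WT and 111, 81.5 and 103 FPKM in KO. The same libraries were lowest as for MT1G. Its log2 fold change was 3.29 ± 0.16 (SE, adjusted p = 1.0e-06 by limma), which 2 loci exceeded. The fold of means was 10.7.

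MT1F, which lies between MT1A and MT1G in the cluster, had 4.34, 5.44 and 4.79 FPKM in WT and 39.5, 34.6 and 38.2 FPKM in KO. Its KO libraries varied least of the family, with a standard deviation of 6.77% of the mean against 15.5% to 17.9% in the other 6 members. The log2 fold change was 2.72 ± 0.09 (SE, adjusted p = 8.8e-08 by limma) and the fold of means 7.71.

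MT1X, at the far end of the cluster, had 12.2, 12.7 and 12.0 FPKM in WT, the tightest WT values of the family relative to the mean. In KO it had 79.6, 55.4 and 69.0 FPKM. Its fold of means was 5.55 and its log2 fold change 2.36 ± 0.11 (SE, adjusted p = 9.3e-07 by limma).

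MT1A and MT1M stayed low in both groups. MT1A had 0.748, 0.787 and 0.711 FPKM in WT and 3.44, 4.76 and 4.01 FPKM in KO, a fold of means of 5.44. Its log2 fold change with 1 FPKM added was 1.53 ± 0.23 (SE, adjusted p = 6.4e-04 by limma), and with 0.1 FPKM added it was 2.29. MT1M was listed at 0 in WT replicates 1 and 3 and at 0.0515 FPKM in WT replicate 2, and had 2.20, 1.73 and 2.47 FPKM in KO. Its fitted log2 fold change was 1.62 ± 0.41 (SE, adjusted p = 0.0087 by limma) and moved to 4.27 with 0.1 FPKM added, so no fold is given for it. At these levels the added constant sets the size of the change, while the separation of the groups does not depend on it.

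**Figure D2:**
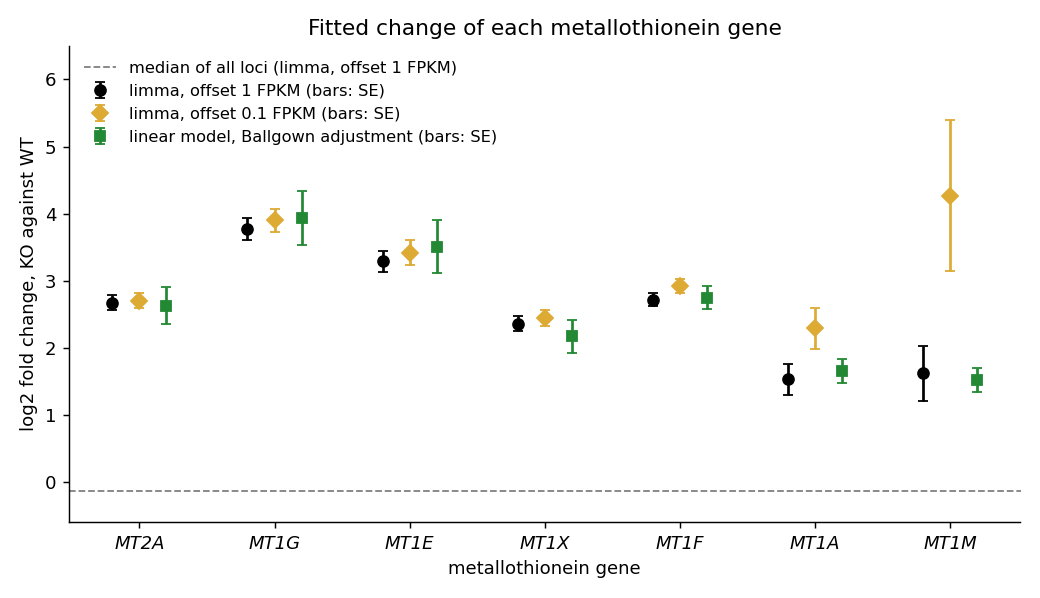
Log2 fold change of each member, FN3K KO against WT, with standard errors as bars, under limma with 1 FPKM added (black), limma with 0.1 FPKM added (yellow) and a linear fit adjusted as in Ballgown (green). The dashed line is the median of all loci, -0.14. The 5 more abundant genes keep their order of change under all 3 fits, whereas MT1A and MT1M move with the added constant.

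The sum of the 7 members was 64.3, 75.2 and 78.0 FPKM in WT, and in KO it was 656, 483 and 615 FPKM. The means were 72.5 ± 7.22 and 584 ± 90.4 FPKM (SD, n = 3), a fold of 8.06, and the lowest KO library was 6.19 times the highest WT library. As a share of all FPKM in a library, the family went from 0.0247% ± 0.00286 to 0.195% ± 0.0312 (SD, n = 3). The gain of 512 FPKM came to 39.1% from MT2A, 25.1% from MT1G, 17.5% from MT1E and 10.9% from MT1X, with the other 3 members giving the rest. Left without MT2A, the sum had a log2 ratio of 3.26 in place of 3.01.

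The order of levels differed between the groups. In WT it ran MT2A, MT1X, MT1E, MT1G, MT1F, MT1A and MT1M, and neighbours in that order were apart in all libraries except MT1E and MT1G, at 9.24 ± 2.14 and 9.17 ± 1.97 FPKM (SD, n = 3), which overlapped. In KO it ran MT2A, MT1G, MT1E, MT1X, MT1F, MT1A and MT1M. Here MT1G and MT1E overlapped, with means of 138 ± 24.4 and 98.6 ± 15.4 FPKM (SD, n = 3), but in each KO library MT1G was the higher of the pair. MT1X thus moved from the second place to the fourth.

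**Figure D3:**
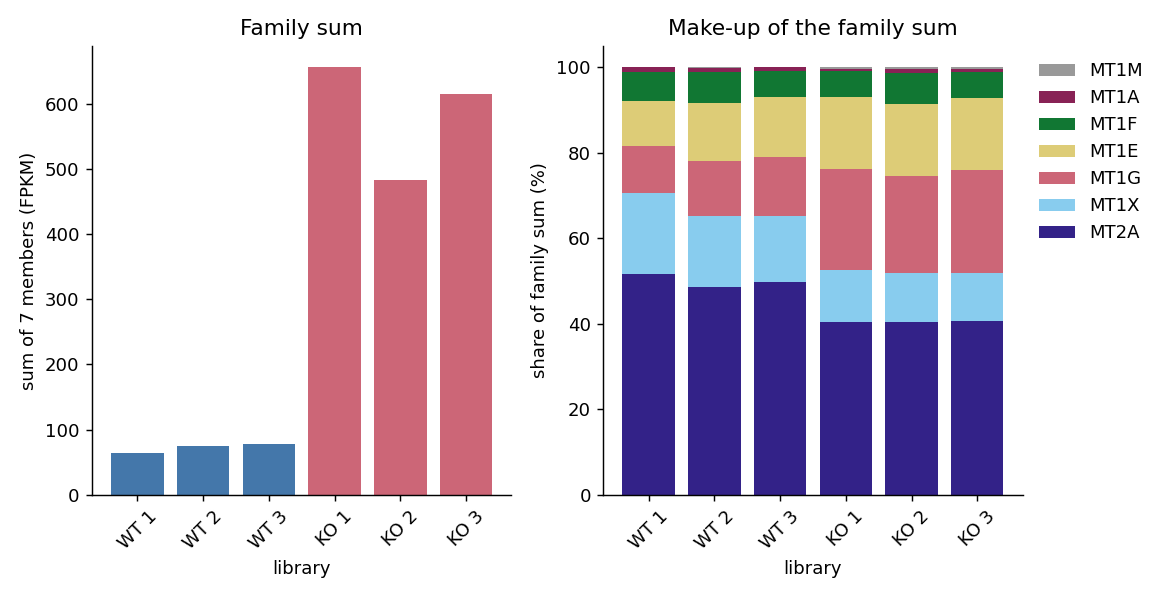
Left, the sum of FPKM over the 7 members in each library, WT in blue and FN3K KO in red. Right, the share of that sum held by each member, in percent. The KO sums lie between 483 and 656 FPKM, above all WT sums, and the share of MT1G is wider in each KO library while those of MT2A and MT1X are narrower.

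The make-up of the sum was compared next. MT2A held 51.7%, 48.5% and 49.8% of the family sum in the WT libraries and 40.4%, 40.4% and 40.6% in KO. MT1G held 10.9%, 12.9% and 13.9% in WT and 23.6%, 22.7% and 24.2% in KO. MT1E rose from a mean of 12.6% to 16.9%, MT1X went from 17.0% to 11.6%, and for neither did the groups overlap. MT1F held 6.71% ± 0.548 in WT and 6.47% ± 0.613 in KO (SD, n = 3), with overlapping libraries. Among the KO libraries the share of MT2A stayed between 40.4% and 40.6% while the sums ranged from 483 to 656 FPKM.

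Whether members changed by different amounts was tested on the log2 ratio of each to MT2A in the same library, with 1 FPKM added. The ratio of MT1G to MT2A was -2.10, -1.81 and -1.75 in WT and -0.77, -0.82 and -0.74 in KO, a difference of 1.11. MT1E to MT2A differed by 0.63 and MT1X to MT2A by -0.30, again with no overlap. MT1F to MT2A differed by 0.05, with overlapping libraries (two-sided exact permutation test, p = 0.60). For the other 5 members the exact permutation p was 0.10, the smallest that 3 libraries against 3 allow, and 0.12 adjusted over the 6 ratios, so the test could not pass 0.05. The differences of MT1A, -1.14, and of MT1M, -1.05, became -0.41 and 1.57 with 0.1 FPKM added, so the ratio of MT1M to MT2A turned its direction with the added constant.

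Within the KO group the members moved together. KO replicate 2 was the lowest KO library in 6 of 7 members, at 79.7% (MT1G) to 92.4% (MT1F) of the KO mean. MT1A was the exception, with KO replicate 2 the highest at 117% of its KO mean. In WT, replicate 1 was the lowest library for MT2A, MT1E, MT1F and MT1G, at 73.6% (MT1E) to 91.8% (MT2A) of the WT mean. Leaving out KO replicate 2 took the log2 ratio of the family sum from 3.01 to 3.13, and leaving out WT replicate 1 took it to 2.93.

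The neighbourhood on chromosome 16 was examined for comparison. Within 1 Mb of the cluster, 9 other loci could be placed through their transcripts, of which 3 were called higher, 0 lower and 6 neither at a limma adjusted p under 0.05, against 21.2% of all loci higher and 36.5% lower. Of the 3, DOK4 was not called with the Ballgown library adjustment, with scaling to a common total or without KO replicate 1. Their log2 fold changes ranged from -0.19 to 0.62. The nearest on the left, NUDT21, a subunit of the machinery that cleaves pre-mRNA ends, lies 156.8 kb away and had 22.3 ± 0.963 FPKM in WT and 20.9 ± 0.703 FPKM in KO (SD, n = 3). Its log2 fold change was -0.09 ± 0.06 (SE, adjusted p = 0.24 by limma). On the right the nearest, RSPRY1, lies 502.1 kb away and had a log2 fold change of -0.19 ± 0.08 (SE, adjusted p = 0.059 by limma). CES1, a liver carboxylesterase at 775.0 kb named after its value was seen, had the highest value of the 9, 0.62 ± 0.07 (SE, adjusted p = 1.2e-04 by limma). All 9 lay below the lowest member, MT1A at 1.53.

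**Figure D4:**
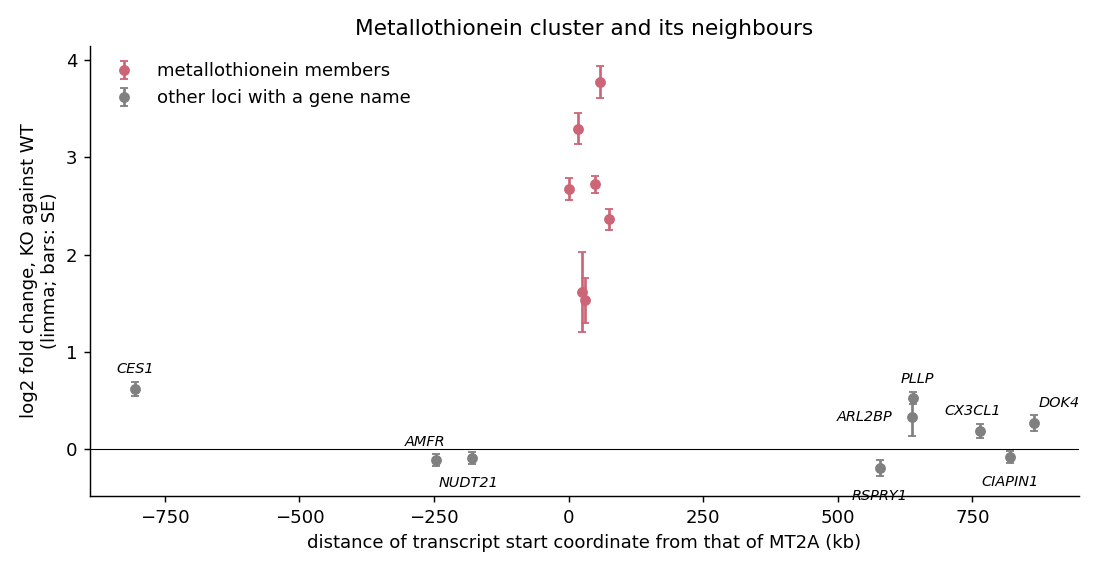
Log2 fold change, FN3K KO against WT, with standard errors from limma, against distance from MT2A in kb for the placed loci within 1 Mb of the cluster. The 7 members (red) lie between 1.53 and 3.77, and the 9 other loci (grey) between -0.19 and 0.62.

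Genes that handle zinc, the main metal bound by metallothioneins, could be measured only in small part. Of 25 listed zinc importers, exporters and MTF1, 6 have a row, all of the SLC39 family, which moves zinc into the cytosol. None was called higher by limma, and 2 were lower, against 21.2% of all loci higher and 36.5% lower. Over 6 genes such counts do not set the list apart from all loci, and the list was not tested. At an unadjusted p under 0.05 none was higher either, and a linear fit with a Ballgown type library covariate called 0 in either direction. SLC39A10, a zinc importer of the cell surface, had 6.69, 6.88 and 4.87 FPKM in WT and 2.81, 3.06 and 2.96 FPKM in KO. Its log2 fold change was -0.85 ± 0.15 (SE, adjusted p = 0.0017 by limma), with no overlap of the groups. SLC39A3, of the same family, was at -0.39 ± 0.06 (SE, adjusted p = 9.1e-04 by limma). With the library covariate SLC39A10 was at -1.01 and SLC39A3 at -0.30 (adjusted p = 0.078 and 0.077 in that linear model over all loci). Both thus kept their direction while losing the call.

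The other 4 SLC39 genes had overlapping groups and did not pass. SLC39A14, which carries zinc and iron into hepatocytes, had 173 ± 9.12 FPKM in WT and 157 ± 21.8 FPKM in KO (SD, n = 3), and its log2 fold change of -0.15 (limma adjusted p = 0.21) turned to 0.01 with the library adjustment. SLC39A7, SLC39A9 and SLC39A11 lay at 0.08, -0.19 and 0.18 on the log2 scale. The zinc exporter SLC30A1, a known target of MTF1, and MTF1 itself have no row by name and were not analysed here.

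Copper genes, whose metal also binds metallothioneins, were measured next. Of 16 listed, 10 have a row, with a median log2 fold change of 0.31. Limma called 6 higher and 1 lower, against 21.2% and 36.5% of all loci. CP, the copper-carrying ferroxidase of plasma, had 11.3, 13.7 and 11.9 FPKM in WT and 40.6, 44.0 and 33.9 FPKM in KO, a log2 fold change of 1.60 ± 0.10 (SE, adjusted p = 4.9e-06 by limma). ATOX1, a copper chaperone chosen here after its value was seen, was at 0.61 ± 0.09 (SE, adjusted p = 5.2e-04 by limma). SLC31A1, the copper importer, had 26.5 ± 1.25 FPKM in WT and 28.7 ± 1.68 FPKM in KO (SD, n = 3), with overlapping groups. The copper exporter ATP7B has no row by name and was not analysed here. With the library adjustment 2 of the 7 calls were left, CP among them, and ATOX1 was at 0.75 (adjusted p = 0.081 in that linear model over all loci).

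Among iron genes, 12 of 25 have a row, with a median log2 fold change of 0.01. Limma called 4 higher and 1 lower, against 21.2% and 36.5% of all loci. SLC40A1, the iron exporter ferroportin, had 7.71, 9.31 and 9.14 FPKM in WT and 23.0, 24.1 and 23.2 FPKM in KO, a log2 fold change of 1.33 ± 0.08 (SE, adjusted p = 3.6e-06 by limma). TFRC, the transferrin receptor that brings iron in, had 21.7, 28.4 and 24.1 FPKM in WT and 47.5, 54.0 and 40.3 FPKM in KO. Its log2 fold change was 0.90 ± 0.12 (SE, adjusted p = 2.8e-04 by limma). FTH1, the heavy chain of the iron store ferritin, had 754 ± 37.3 and 769 ± 18.5 FPKM (SD, n = 3), with overlapping groups. The lower call was IREB2, an iron-sensing regulator named after its value was seen, at -0.24 (limma adjusted p = 0.033), a call that most alternatives did not keep. With the library adjustment 1 of the 5 iron calls was left, that of SLC40A1. TFRC was then at 1.14 (adjusted p = 0.072 in that linear model over all loci) and HMOX1 at 0.59 (adjusted p = 0.053), so both calls were lost at larger fold changes.

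Heat shock genes, which toxic metals are known to induce, had 13 of 18 listed with a row and a median log2 fold change of 0.13. Limma called 5 higher and 1 lower, against 21.2% and 36.5% of all loci. HSPB1, a small heat shock protein, had 15.1, 16.04 and 16.9 FPKM in WT and 32.9, 36.1 and 41.5 FPKM in KO, a log2 fold change of 1.15 ± 0.09 (SE, adjusted p = 1.1e-05 by limma). HSPA1A, an inducible chaperone whose sequence is nearly that of HSPA1B, was at 0.74 ± 0.05 (SE, adjusted p = 7.1e-06 by limma). HMOX1, the haem-degrading enzyme that stands on both the iron and heat shock lists, had 20.4 ± 1.44 FPKM in WT and 29.9 ± 0.772 FPKM in KO (SD, n = 3). The changes of these 3 genes, at most 2.30-fold by means, were smaller than those of all 6 metallothioneins with a fold.

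Of 19 glucocorticoid responsive genes, 10 have a row, with a median log2 fold change of -0.03. Limma called 4 higher and 3 lower, against 21.2% and 36.5% of all loci. TXNIP, an inhibitor of thioredoxin, had 0.397, 0.471 and 0.420 FPKM in WT and 6.49, 4.96 and 5.99 FPKM in KO, a log2 fold change of 2.25 ± 0.22 (SE, adjusted p = 4.9e-05 by limma) that became 3.48 with 0.1 FPKM added. PCK1, an enzyme of gluconeogenesis, was 2.66 times as high by means in KO (limma adjusted p = 3.6e-05). IGFBP1, a secreted binding protein of insulin-like growth factors, went from 1453, 1964 and 1998 FPKM in WT to 389, 444 and 338 FPKM in KO, at -2.20 ± 0.14 (SE, adjusted p = 4.8e-06 by limma). NR3C1, the glucocorticoid receptor itself, had 6.44 ± 0.663 FPKM in WT and 4.18 ± 0.115 FPKM in KO (SD, n = 3) and was called lower, at -0.52 (limma adjusted p = 0.0053). With the library adjustment it was at -0.41 and not called (adjusted p = 0.11 in that linear model over all loci). FKBP5, a common marker of glucocorticoid action, has no row by name and was not analysed here.

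Acute phase genes, which inflammation turns on in the liver, had 4 of 21 with a row and a median log2 fold change of 0.17. Limma called 2 higher and 0 lower, against 21.2% and 36.5% of all loci. No member of this list passed a log2 fold change of 1 in size. The zinc, copper, iron, heat shock, glucocorticoid and acute phase lists were written from general knowledge. Their counts are given beside the shares of all loci, of which 57.7% were called in either direction, and no list was tested.

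**Figure D5:**
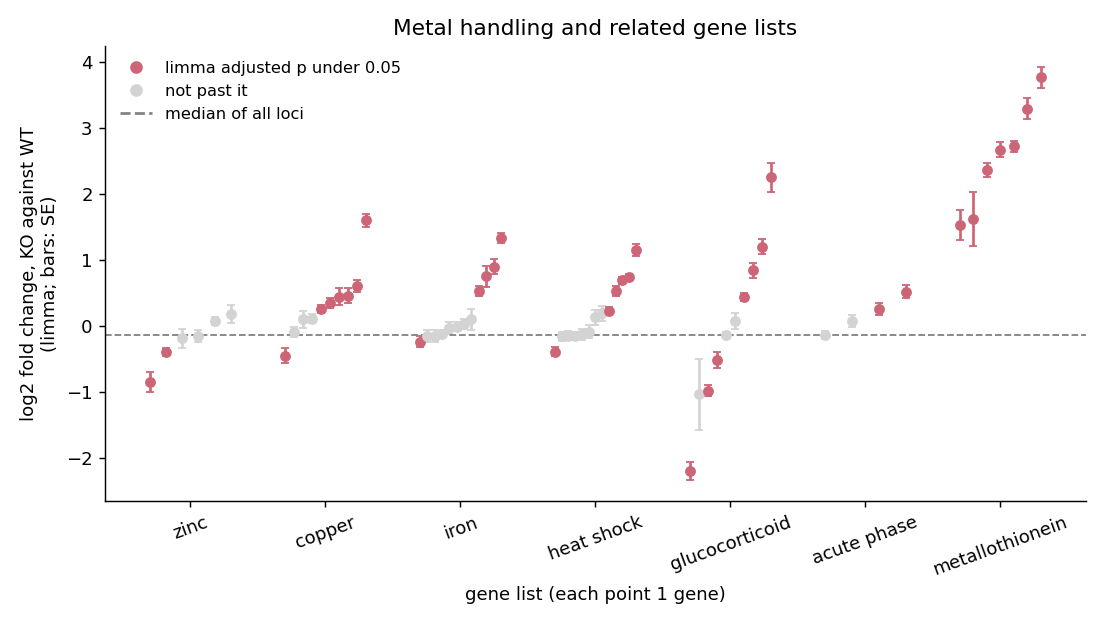
Log2 fold change, FN3K KO against WT, of each listed gene with a row, by list, with standard errors from limma. Red points had an adjusted p under 0.05 and grey points did not, and the dashed line is the median of all loci. The metallothioneins at the right reach 3.77. The zinc list holds only 6 genes and has no red point above 0.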

How the data were processed

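Polyadenylated RNA from HepG2 plates was sequenced for the authors, mapped with HISAT2, and assembled and quantified with StringTie 2.0.6 on GRCh38.p5, according to the paper and the submitters' processing notes. The deposited values are FPKM per assembled locus, with replicates kept apart. The filter on loci, the strand and the read length are not given in the sources used here. Depth is unknown: over the 300 lowest loci, at most 2 shared a ratio within a tolerance of 0.0001 in any of 15 pairs of libraries, so whole reads could not be recovered.

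All 6357 loci were tested on log2(FPKM + 1) with limma 3.58.1 (variance trend) in R 4.3.3, KO against WT, and adjusted by the Benjamini-Hochberg method. Single ratios were compared by exact permutation. The study used the stattest function of Ballgown, and a linear model with the default library adjustment of that function was an alternative. The paper does not state the adjustment. Other alternatives were 0.1 FPKM added, loci with a mean under 1 FPKM dropped, libraries brought to 1 total or to 1 75th percentile, no variance trend, replicate number used as block, and leaving out the libraries singly.

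Members and lists were chosen with earlier results of these data known. Genes named were the members, all zinc genes, genes of the other lists that passed limma and changed by over 1 on the log2 scale, ATP7B, SLC31A1, TFRC, FTH1, HMOX1, NR3C1, FKBP5 and HSPA1A, the nearest neighbours, and the 5 loci most alike in pattern by each of 2 measures. Transcripts were matched to GENCODE version 29. Promoters came from a set with RefSeq starts, in which only 2 members had an entry. Python 3.11.15 with pandas 2.3.3, numpy 2.4.6 and matplotlib 3.10.9 was used.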

Additional observations from a re-analysis of the deposited data

How the results depend on the processing

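All 7 members kept their direction and an adjusted p under 0.05 in each of 13 alternatives, with the highest adjusted p, 0.04, for MT1M. With each library left out in turn, log2 fold changes stayed between 3.61 and 3.93 for MT1G and between 2.58 and 2.80 for MT2A. The log2 ratio of the family sum lay between 2.92 and 3.13 with each library left out and was 3.26 without MT2A. With 0.1 FPKM added, the ratio to MT2A differed by -0.41 for MT1A, 0.23 for MT1F and 1.57 for MT1M, where the direction turned. With a library left out, that of MT1F ranged from -0.03 to 0.11, turning without WT replicate 3 or KO replicate 2. The library adjustment of Ballgown called 606 loci higher and 521 lower against 1348 and 2322, so that 53.8% of calls were higher against 36.7%. It called 0 zinc, 2 copper, 1 iron, 0 acute phase and 3 heat shock genes, and 5 glucocorticoid responsive genes against 7. Without the variance trend 1 acute phase gene was called, and with a library left out from 1 to 3, and among listed neighbours on 16q13 from 2 to 5 against 3, the 5 being without WT replicate 1. The cause of these moves was not tested.

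Libraries with the same number did not deviate together (correlations across loci of 0.00958, 0.00606 and 0.0458). The labels do not say whether such libraries were handled together, which these correlations cannot decide. With the replicate block 1365 loci were called higher and 2342 lower, and MT1M had a log2 fold change of 1.62. The depth behind low values such as those of MT1M and MT1A is unknown.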

Other observations

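The loci whose log2(FPKM + 1) followed the log2 family sum most closely over the 6 libraries, among 3053 named loci with a mean of at least 10 FPKM, were HSD17B12, RHOC, CIDEC, TMEM97 and ACSS2, with Pearson's r from 0.9983 to 0.9992. CIDEC, a lipid droplet protein, had 2.17, 2.33 and 2.82 FPKM in WT and 20.7, 17.9 and 22.0 FPKM in KO. ACSS2, which makes acetyl-CoA from acetate, had 5.91, 6.98 and 6.41 FPKM in WT and 62.9, 52.1 and 56.6 FPKM in KO. HSD17B12 is an enzyme of fatty acid elongation, and its log2 fold change was 0.67. The 6 libraries fall into 2 groups, so these values describe mainly a difference between the groups and say nothing of shared control.

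On deviations from the group means alone, the closest loci were PPP1CB, ANP32B, LYRM1, LRRC20 and, highest, a locus known by a clone name, with r from 0.9884 to 0.9963 over the same 6 libraries. As the best of 3053 candidates over so few libraries, such values of r can arise by chance. Their log2 fold changes lay between -0.50 and 0.26, against 2.67 for the median member.

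Among the members themselves, deviations from the group means correlated most highly between MT1E and MT1G, at 0.984, and between MT1G and MT2A, at 0.922. The lowest pair without MT1A was MT1E and MT1M, at 0.545. With both group means taken out of 6 libraries, few free values remain, so such correlations can arise by chance. MT1A went the other way, at -0.949 with MT1X and -0.881 with MT2A. MT1A lay between 3.44 and 4.76 FPKM in KO, where the number of reads behind a value is unknown.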
